A study of Mus musculus with 4 samples.

Results

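The Spata genes, short for spermatogenesis-associated, are a group of genes named for their expression in the male germ line. They were taken here as the protein-coding genes of GENCODE release M21 (mm10, GRCm38) whose symbol is Spata followed by a digit, apart from Spata3, which was not used here. This gave 28 of 21951 protein-coding genes. Read clusters from IGF2BP3 eCLIP-seq of mouse testis belonged to a gene when their centre lay in its span on the same strand, and each of the 28 genes held clusters in both replicates. The highest fold changes were found in Spata31 and Spata31d1d, where every cluster of both replicates was called. Both belong to the Spata31 family, which also holds Spata31d1a, Spata31d1b and Spata31d1c. The family is uneven, since 1 of 14 clusters of Spata31d1b was called in replicate 1 and 9 of 16 in replicate 2. Outside that family, called clusters of both replicates overlapped in Spata17, Spata4, Spata19 and Spata7, of which the Spata19 site lay close to the thresholds and the Spata7 site in a repeat.

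Testes of 8-week-old wild type mice of strain C57BL/6 (C57BL/6J in the protocol) were dissociated, 2 testes for a suspension, and crosslinked 3 times at 254 nm with 400 mJ/cm2 of UV on ice. An antibody to IGF2BP3 pulled down protein and bound RNA for the IP libraries, and 2% of the lysate, taken without antibody, gave the SMInput libraries that serve as their background. There were 4 libraries, 1 IP and 1 SMInput in each of 2 replicates, and the amplified libraries were 275 to 450 bp long. The library totals behind the listed values were 5133438 IP and 8706391 SMInput reads in replicate 1, and 4637612 IP and 16696122 SMInput reads in replicate 2.

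IGF2BP3 is an RNA-binding protein of the oncofetal IGF2BP family, with RNA recognition motifs and KH domains, and it acts on the stability and translation of the messenger RNAs that it binds. Late male germ cells store many messenger RNAs for later translation, so such proteins are prominent in spermatids. The Spata genes are not a family by sequence, although the Spata31 genes are related to each other, as are Spata2 and Spata2l, and their products act in places as different as the acrosome, the sperm mitochondria, meiotic recombination, ribosome assembly and the photoreceptor cilium.

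The clusters held RNA of the cells that the labels name, germ cells and somatic cells of the whole testis. The spermatid genes Prm1 and Prm2, which encode protamines, had clusters with up to 358 and 426 SMInput reads in replicate 1, and up to 639 and 665 in replicate 2, among clusters whose reads could be recovered from the listed values. Of the Sertoli cell gene Clu and the Leydig cell gene Insl3, the deepest clusters held 218 and 319 SMInput reads in replicate 1, and 393 and 521 in replicate 2. These 2 genes were the deepest of their lists, and the others lay far lower. Other Sertoli cell markers reached at most 13 SMInput reads in replicate 1 and 18 in replicate 2, both in Wt1. Other Leydig cell markers reached at most 16 and 22, both in Cyp17a1. The liver genes Alb and Apoa1 had 0 clusters in both replicates, and the blood gene Hbb-bs had 2 clusters in replicate 1 and 0 in replicate 2. The other blood gene, Ptprc, had clusters in both replicates, 4 in replicate 1 and 2 in replicate 2, with at most 1 and 2 SMInput reads. In a whole testis, fewer cells of a type and less RNA per cell cannot be told apart, and this holds for the SMInput level of each Spata gene. Called clusters in replicates 1 and 2 were found in 3 and 3 of 7 spermatid markers, 1 and 2 of 5 spermatocyte markers, 2 and 2 of 2 germ cell markers and 2 and 3 of 3 spermatogonial markers. In somatic markers they were found in 1 and 1 of 5 for Sertoli cells, 2 and 2 of 5 for Leydig cells, 1 and 2 of 2 for peritubular cells and 0 of 2 for blood. Over all protein-coding genes with a cluster the shares were 40.8% and 62.8%, and these short lists were not tested against them. Prm1 and Prm2 had 0 called clusters in both replicates, as did Tnp1, Tnp2 and Clu, whereas Odf1, Smcp and Acrv1 each had a called site in the same place in both.

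A cluster was called where the log2(fold change) of IP over SMInput and the −log10(P value) were both at least 2, the values being those of the authors' peak calling. In the Spata genes, 72 of 885 clusters were called in replicate 1, or 8.14% (95% Wilson interval 6.51 to 10.1), beside 4.91% of 325667 clusters in all protein-coding genes. In replicate 2, 96 of 607 were called, or 15.8% (13.1 to 18.9), beside 13.1% of 209699. The higher share was carried by the Spata31 family as a pool. There 43 of 67 clusters were called in replicate 1 (64.2%) and 49 of 58 in replicate 2 (84.5%). In the other 23 Spata genes, 29 of 818 were called in replicate 1 (3.55%, interval 2.48 to 5.05) and 47 of 549 in replicate 2 (8.56%, 6.50 to 11.2), and neither share was above that of all protein-coding genes. Clusters are not replicates, and touching clusters can share reads, so the intervals cover counting error only.

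Counted by gene, 17 Spata genes had a called cluster in replicate 1 and 19 in replicate 2, or 60.7% and 67.9%, beside 26.1% and 36.8% of all protein-coding genes. Many protein-coding genes had no cluster at all. Of those with a cluster, 40.8% of 14051 in replicate 1 and 62.8% of 12841 in replicate 2 had a called one, so in replicate 2 the share of Spata genes was near that of genes with clusters. Both replicates gave a called cluster in 14 of the 28 Spata genes, beside 21.9% of all protein-coding genes. A called site shared by the replicates, with at least 1 base in common, was found in 9 Spata genes, or 32.1%, beside 9.33%. Of the 12312 protein-coding genes with clusters in both replicates, 39.1% were called in both and 16.6% had a shared site. Outside the Spata31 family, 9 of 23 Spata genes were called in both (39.1%) and 4 had a shared site (17.4%), near those shares. In replicate 1, 12 of these 23 were called (52.2%, Wilson interval 33.0 to 70.8), beside 40.8% of genes with a cluster, and in replicate 2, 14 (60.9%), beside 62.8%. The 9 genes with a shared site were the 5 Spata31 genes, Spata17, Spata4, Spata19 and Spata7. Called in both replicates without a shared site were Spata1, Spata2, Spata5, Spata6 and Spata16. Spata13, Spata20 and Spata2l were called in replicate 1 only, and Spata18, Spata21, Spata22, Spata32 and Spata46 in replicate 2 only. Spata9, Spata24, Spata25, Spata33, Spata45 and Spata48 had no called cluster. With a replicate left out, only the count of the other is left, 19 or 17 genes, and with both thresholds raised to 3 the shared sites were in 4 genes, Spata31, Spata31d1c, Spata31d1d and Spata17. Spata19 lost its shared site with P values adjusted over all clusters, with at least 10 IP reads and under either stricter overlap rule, Spata7 with at least 10 IP reads or, being intronic, with centres in exons, and Spata31d1b under either stricter overlap rule.

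**Figure D1:**
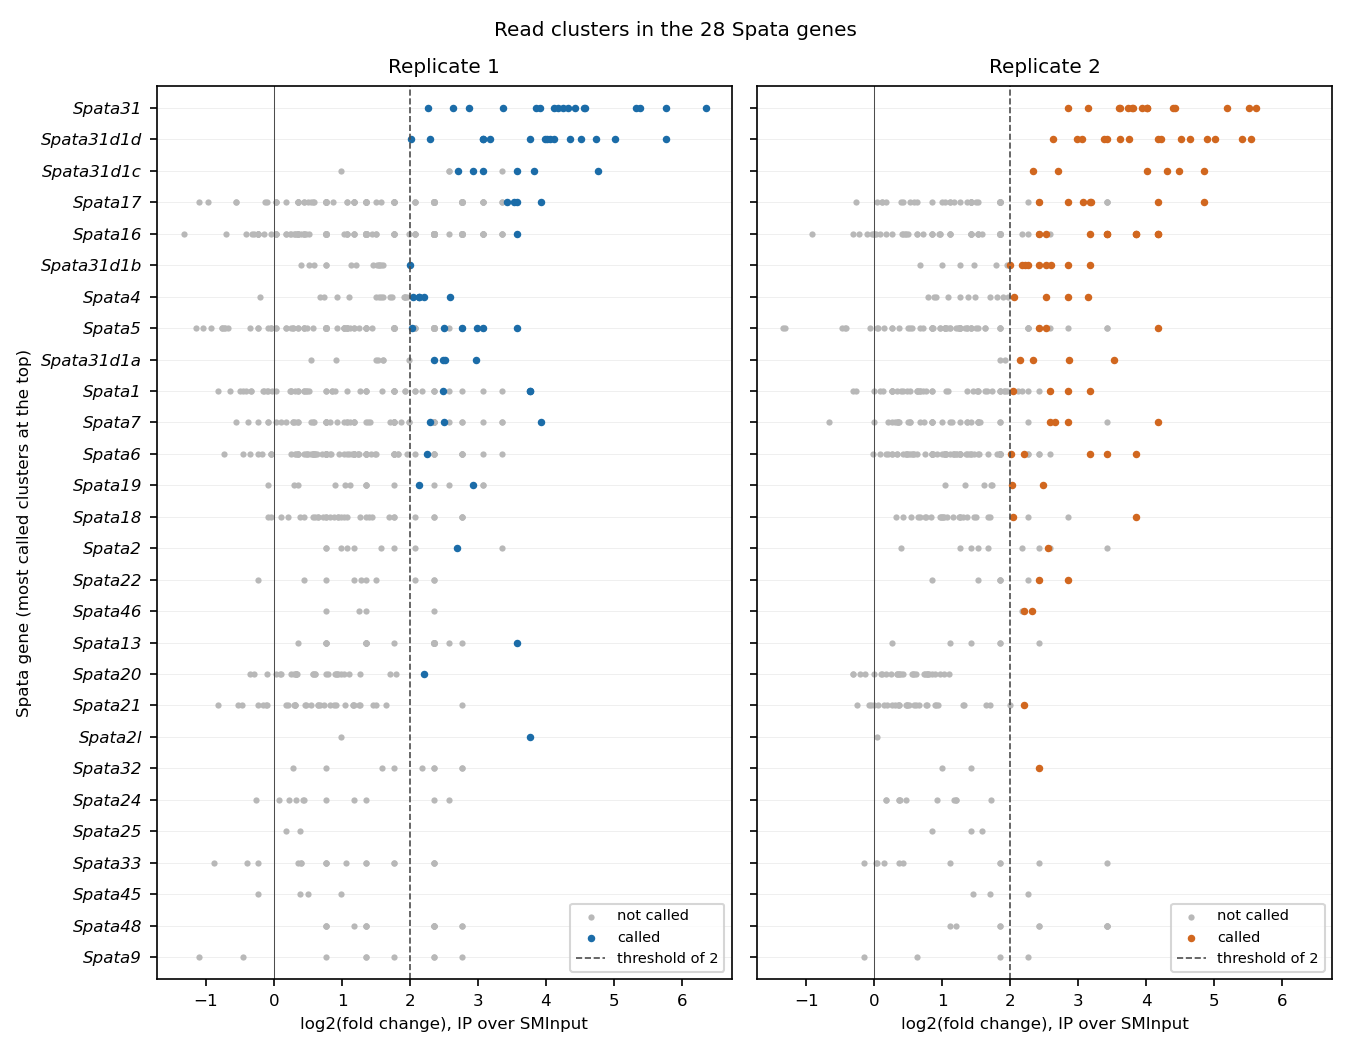
Each point is a read cluster in a Spata gene, placed by its log2(fold change) of IP over SMInput on the horizontal axis, with replicate 1 on the left and replicate 2 on the right; coloured points were called and grey points were not, either for a fold change below 2 on the log2 scale or for a −log10(P value) below 2. In Spata31 all 17 and 15 clusters were called, and in Spata31d1d all 15 and 15.

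The median log2(fold change) of all clusters, pooled over genes, was 2.93 in replicate 1 and 3.41 in replicate 2 for the Spata31 family, 1.35 and 1.26 for the other Spata genes, and 1.46 and 1.53 for all protein-coding genes. Among called clusters alone the medians were 3.91 and 3.61 in the family, 2.76 and 2.85 in the other Spata genes, and 2.84 and 3.07 over all protein-coding genes. Pooled, the family stood above the genome-wide medians in both replicates and the other members below them. Gene by gene the groups overlapped. The family medians ran from 1.34 in Spata31d1b to 4.25 in Spata31 in replicate 1 and from 2.09 in Spata31d1b to 4.17 in Spata31d1d in replicate 2, and outside the family Spata2l reached 2.37 in replicate 1 and Spata48 2.43 in replicate 2.

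The Spata31 genes encode large testis proteins, and loss of Spata31 in the mouse is known to disturb spermatid development. In Spata31 the clusters lay between log2(fold change) 2.26 and 6.35 in replicate 1, with a median of 4.25, and between 2.85 and 5.62 in replicate 2, with a median of 3.94. In Spata31d1d they lay between 2.01 and 5.76 with a median of 4.01, and between 2.63 and 5.54 with a median of 4.17. Both genes had all of their clusters called in both replicates. Among the 6102 protein-coding genes with at least 10 clusters in each replicate, 8 genes had that property, or 0.131%; the measure was chosen after the values of these genes were seen. Called clusters covered 21.8% of the longest Spata31 messenger RNA in replicate 1 and 21.9% in replicate 2. For Spata31d1d the covered shares were 19.1% and 16.3%. Among 21864 genes Spata31 ranked 146 and 178 by this share, and Spata31d1d ranked 201 and 378. Only 4361 of these genes in replicate 1 and 5738 in replicate 2 had any covered base.

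The best pair of a gene is the pair of overlapping called clusters in which the lower fold change of the replicates is highest. Whole IP and SMInput reads were recovered from the listed values, and exact (Clopper-Pearson) 95% intervals of the fold change, for counting error only, follow from them. For Spata31 the pair lay at chr13:64920818-64920889 on the + strand. Its cluster in replicate 1 had a log2(fold change) of 5.38 from 197 IP and 8 SMInput reads (interval 4.38 to 6.62) and a −log10(P value) of 67.2. In replicate 2 the log2(fold change) was 5.52, and the −log10(P value) was listed at 400, its highest possible entry, for which reads cannot be recovered. For Spata31d1d the pair lay at chr13:59729178-59729231 on the − strand. Replicate 1 gave 5.01 from 114 IP and 6 SMInput reads (3.84 to 6.49), with a −log10(P value) of 38.1. Replicate 2 gave 5.54, again listed at 400. The strongest clusters of replicate 1 alone lay elsewhere, at 6.35 in Spata31 (chr13:64921832-64921872) and 5.76 in Spata31d1d (chr13:59728538-59728572), each with 1 SMInput read.

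Spata31 carried 5 shared sites and Spata31d1d a long continuous site. The longest Spata31 site, chr13:64920542-64920889, spanned 348 bases and joined 7 clusters of replicate 1, from 2.63 to 5.38, with 6 of replicate 2, from 3.60 to 5.62, of which 4 were listed at 400. The next lay at chr13:64920934-64921071, with 3 clusters between 3.91 and 4.43 in replicate 1 and 2 clusters at 4.02 and 3.94 in replicate 2. Near the end of the coding sequence, chr13:64922901-64922974 had values of 5.33 and 3.61, and chr13:64922996-64923057 had 5.76 and 4.43. At the fifth site, chr13:64921830-64921872, the replicates differed more. Replicate 1 gave 6.35 from 48 IP reads and 1 SMInput read (3.80 to 11.68), and replicate 2 gave clusters of 3.79 (2.85 to 4.84) and 3.81 (2.78 to 4.98). The Spata31d1d site, chr13:59728842-59729408, was 567 bases long and held 11 clusters of replicate 1, from 2.01 to 5.01, and 10 of replicate 2, from 2.63 to 5.54. Called clusters that overlapped a called cluster of the other replicate were joined to 1 site where they touched, because a read longer than a cluster may count in more than 1.

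Spata31d1a and Spata31d1b had lower values. Spata31d1c had a median of 3.01 in replicate 1, below Spata31 and Spata31d1d, and of 4.16 in replicate 2, above Spata31 and level with Spata31d1d. In Spata31d1c, where 6 of 10 and 6 of 6 clusters were called, the best pair was at chr13:65035911-65036061 on the + strand. It had 3.82 from 25 IP and 3 SMInput reads in replicate 1 (2.11 to 6.19, −log10(P value) 7.83) and 4.02 from 27 and 6 in replicate 2 (2.71 to 5.58, −log10(P value) 15.5). A further shared site lay in its 3′UTR, chr13:65037572-65037691, with 23 IP and 6 SMInput reads in replicate 1 (1.36 to 4.29) and 31 and 5 in replicate 2 (3.11 to 6.20). In Spata31d1a 4 of 11 and 4 of 6 clusters were called, and the best pair, chr13:59703612-59703754 on the − strand, had 2.97 from 37 and 8 reads (1.85 to 4.29, −log10(P value) 9.01) and 2.87 from 61 and 30 (2.22 to 3.55, −log10(P value) 24.4). In Spata31d1b 1 of 14 clusters was called in replicate 1 and 9 of 16 in replicate 2. Its only shared site, chr13:59716285-59716448 on the + strand, lay at the threshold in replicate 1, with 2.00 from 59 and 25 reads (1.30 to 2.74, −log10(P value) 9.18), and had 2.43 from 18 and 12 reads in replicate 2 (1.30 to 3.62, −log10(P value) 5.93). In these 3 genes the intervals of the replicates overlapped at each best pair.

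All 5 genes have a long last coding exon, which makes up between 89.0% and 93.0% of the coding sequence. Pooled over the 5 genes, most clusters, called or not, lay in this exon. The clusters of Spata31d1c that were not called in replicate 1 were an exception. In Spata31 this exon, chr13:64920296-64923081, has 2786 bases and held 17 of 17 called clusters of replicate 1 and 15 of 15 of replicate 2. In Spata31d1d, chr13:59725979-59729417, it has 3439 bases and held 14 of 15 in each replicate. The counts were 4 of 4 and 4 of 4 in Spata31d1a, 1 of 1 and 7 of 9 in Spata31d1b, and 4 of 6 and 5 of 6 in Spata31d1c. Of the clusters not called, the exon held 7 of 7 and 2 of 2 in Spata31d1a, 11 of 13 and 6 of 7 in Spata31d1b, and 1 of 4 in replicate 1 of Spata31d1c. Within the exon, the long site of Spata31d1d covered coding bases 312 to 878 of 3741, near the start of the exon at coding base 303. The longest site of Spata31 covered coding bases 503 to 850 of 3042, and the exon there starts at coding base 257.

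**Figure D2:**
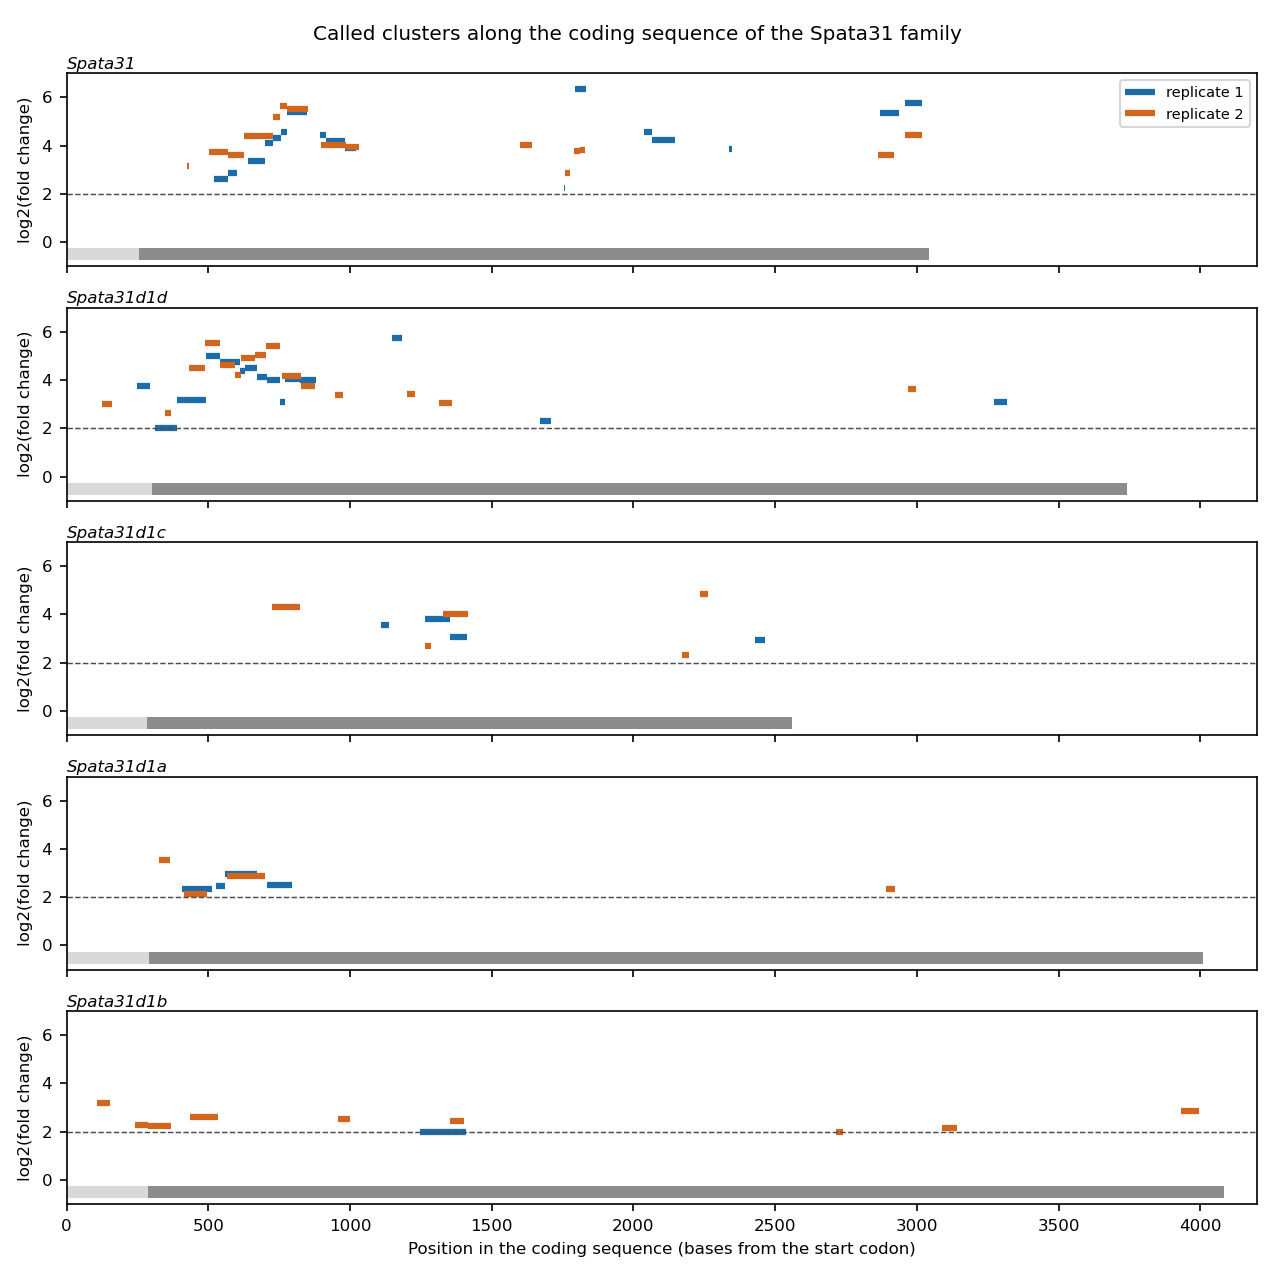
Horizontal segments are called clusters of the Spata31 genes, placed by position in the coding sequence of the longest transcript and by log2(fold change), blue for replicate 1 and orange for replicate 2; the bar under each panel is the coding sequence, dark in the last coding exon, and the dashed line is the threshold of 2. The long site of Spata31d1d lies between coding bases 312 and 878, the highest segment of that gene, 5.76 in replicate 1, starts outside this site at coding base 1148, and the called clusters in the 3′UTR of Spata31d1c are not drawn.

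The values of the family are given as uncertain, because the members resemble each other and the handling of reads with several matches is not known here. Over aligned coding bases, Spata31d1a and Spata31d1b were 77.0% identical, Spata31d1c and Spata31d1d 66.1%, and Spata31 was between 41.5% and 45.2% identical to the others. None of the 11 shared sites of the family had another match in the genome over at least 80% of its length, and 1 site of Spata31 and the site of Spata31d1b each had 1 shorter match. The placement of reads was not tested. On the joint alignment of the 5 coding sequences, the called clusters of Spata31d1a fell on positions that were also covered in Spata31d1d. In replicate 1 this held for 334 of the 334 covered positions of Spata31d1a that could be aligned (100%, which were 47.4% of the 704 of Spata31d1d), and in replicate 2 for 227 of 279 (81.4%, and 37.8% of 601). Spata31d1a and Spata31d1b, the most alike by sequence, shared 0 covered positions in replicate 1 and 93 in replicate 2 (33.0% of Spata31d1a and 18.3% of Spata31d1b). Other pairs also differed between replicates. Spata31d1b shared 0 and 167 positions with Spata31d1d (in replicate 2, 37.2% of Spata31d1b and 27.2% of Spata31d1d). Spata31d1c shared 0 and 99 with Spata31d1d (in replicate 2, 43.4% of Spata31d1c and 17.0% of Spata31d1d). Spata31d1b shared 60 and 0 with Spata31d1c (in replicate 1, 41.1% of Spata31d1b and 30.8% of Spata31d1c). Spata31 shared 117 and 105 covered positions with Spata31d1c in replicates 1 and 2 (67.6% and 81.4% of those of Spata31d1c, 23.8% and 22.0% of those of Spata31). Each share counts only covered positions that could be aligned within the pair. With Spata31d1d, Spata31 shared 63 and 61, or 10.1% and 10.3% of those of Spata31. These were 47.4% and 54.5% of only 133 and 112 alignable positions of Spata31d1d, whose called clusters covered 731 and 625 coding bases. With Spata31d1b, Spata31 shared 87 and 34, of 671 and 657 alignable covered positions of Spata31. These were 58.8% and 21.7% of the 148 and 157 of Spata31d1b. With Spata31d1a, Spata31 shared 0, but only 7 and 30 covered positions of Spata31d1a could be aligned to Spata31.

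Genes for the sperm head and acrosome gave a mixed picture. Spata16, which is needed to form the acrosome and is mutated in some men with round-headed sperm, had 1 called cluster of 150 in replicate 1 and 9 of 86 in replicate 2. All of them were intronic, and none overlapped between the replicates. The strongest in replicate 1, chr3:26689712-26689779, had a log2(fold change) of 3.57 from 7 IP reads and 1 SMInput read (0.61 to 9.06). The strongest in replicate 2, with 4.17 (1.01 to 9.73), rested on 5 IP reads and 1 SMInput read. In exons of Spata16 the highest values were 0.52 in replicate 1 and 1.85 in replicate 2. Spata46, a nuclear membrane protein of the sperm head, was called in replicate 2 alone, with 2 of 3 clusters at 2.20 (1.25 to 3.18) and 2.32 (1.21 to 3.47), and its exonic clusters in replicate 1 reached 1.35. These 2 clusters covered 26.2% of the short Spata46 messenger RNA. That was rank 123 among 21864 genes in that replicate, of which 5738 had any covered base. Of 8 partner genes of the acrosome and sperm head, 8 had a called cluster in each replicate and 4 a shared site, among them Acr, the protease acrosin, with highest called values of 3.59 and 3.83 in its coding sequence. Of all protein-coding genes with clusters, 40.8% and 62.8% were called in replicates 1 and 2. Called in both were 39.1%, and 16.6% had a shared site. Each list of partner genes is read beside these shares. Counted by cluster, 48 of 375 and 51 of 272 in the acrosome list were called, beside 4.91% and 13.1% in all protein-coding genes.

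Spata6, which builds the connecting piece between sperm head and tail, had 1 of 80 and 5 of 73 clusters called. Its cluster of replicate 1, chr4:111828597-111828633 in the 3′UTR, had 2.25 from 14 IP and 5 SMInput reads (0.69 to 4.07). The exonic clusters of replicate 2 lay elsewhere, with 2.21 in the coding sequence (1.12 to 3.33) and 2.01 in the 3′UTR (0.99 to 3.04), and the strongest of that replicate was intronic, with 3.85 from 4 IP reads and 1 SMInput read (0.51 to 9.47). Spata20, a thioredoxin-like gene, had 1 of 30 clusters called in replicate 1, chr11:94482938-94482988 in the coding sequence, with 2.21 from 30 and 11 reads (1.17 to 3.35), and in replicate 2 its clusters reached 1.10. Of 8 partner genes of the head-tail junction and manchette, 6 were called in each replicate, 5 in both, and 3 had a shared site. Over genes with clusters, 39.1% were called in both and 16.6% had a shared site. Counted by cluster, 23 of 510 and 37 of 381 in this list were called, beside 4.91% and 13.1% in all protein-coding genes.

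Of the mitochondrial members, only Spata19 had a shared site. Spata19 encodes a protein of the mitochondrial sheath in the sperm midpiece. Its site at chr9:27397703-27397777 on the + strand lay in the coding sequence and had 2.14 from 13 IP and 5 SMInput reads in replicate 1 (0.56 to 3.98, −log10(P value) 2.35). Replicate 2 gave 2.02 from 9 and 8 reads (0.47 to 3.59, −log10(P value) 2.33), so both values stood close to the thresholds. In all, 2 of 16 and 2 of 7 clusters of Spata19 were called. Its strongest were elsewhere in the coding sequence, with 2.93 from 9 and 2 reads at chr9:27397328-27397354 in replicate 1 (0.66 to 6.18) and 2.48 from 17 and 11 reads at chr9:27397120-27397177 in replicate 2 (1.30 to 3.72, −log10(P value) 5.74). Called clusters covered 10.8% and 12.6% of the 697-base messenger RNA. Spata33, which anchors calcineurin to sperm mitochondria, had 0 of 17 and 0 of 11 clusters called, and its exonic clusters reached 1.76 and 1.85. The protein-coding gene Gm20388 spans Spata33 on the same strand, so its reads cannot be told from those of Spata33. Spata18, which encodes the mitochondrial quality control protein MIEAP, had 0 of 33 and 2 of 28, the stronger in an intron with 3.85 from 4 IP reads and 1 SMInput read (0.51 to 9.47) and the other in the coding sequence with 2.04 (0.38 to 3.74). Of 8 partner genes of the mitochondrial sheath and calcineurin, 7 and 5 were called, 5 in both replicates. A shared site was found in 5, including Vdac2, Vdac3, Ppp3cc and Ppp3r2. Over genes with clusters, 39.1% were called in both and 16.6% had a shared site. Counted by cluster, 26 of 179 and 17 of 135 in this list were called, beside 4.91% and 13.1% in all protein-coding genes.

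Spata22, which works with MEIOB on single-stranded DNA in meiotic recombination, had 0 of 10 and 2 of 9 clusters called. The called clusters of replicate 2 lay in the coding sequence, with 2.85 from 8 IP and 4 SMInput reads (0.95 to 5.03) and 2.43 from 6 and 4 (0.36 to 4.70), while exonic clusters of replicate 1 reached 1.28. The protein-coding gene Gm49340 spans Spata22 on the same strand, so reads of the pair cannot be told apart. Among 9 genes of meiotic recombination, 8 had clusters in each replicate, and Rpa3 had 0 clusters in both. Called were 4 and 7 genes, 4 in both replicates, and 1, Hsf2bp, had a shared site. Beside these counts stand 39.1% called in both and 16.6% with a shared site over genes with clusters. Meiob itself had 0 of 19 and 1 of 20 clusters called.

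The next members are best known for roles outside the sperm. Spata2 encodes the adaptor that joins the deubiquitinase CYLD to the linear ubiquitin ligase. It had 1 of 10 clusters called in each replicate, at different places, chr2:167483427-167483573 in the coding sequence with 2.69 (1.22 to 4.46) in replicate 1, and chr2:167482466-167482554 in the 3′UTR with 2.55 (1.17 to 4.03) in replicate 2. Its relative Spata2l had 1 of 2 clusters called in replicate 1, with 3.76 from 8 IP reads and 1 SMInput read (0.86 to 9.23), and 0 of 1 in replicate 2. The 5 genes of the linear ubiquitin and CYLD complex gave 1 and 3 called genes and 0 shared sites. Spata5, an AAA ATPase of ribosome maturation, had 6 of 119 and 3 of 69 clusters called. The strongest exonic cluster of Spata5, chr3:37451643-37451712 in replicate 1, had 2.98 from 14 and 3 reads (1.14 to 5.42), and in replicate 2 its called clusters were all intronic. The strongest of all were intronic too, with 3.57 from 7 IP reads and 1 SMInput read in replicate 1 (0.61 to 9.06) and 4.17 from 5 and 1 in replicate 2 (1.01 to 9.73). Its 3 partner genes gave 2 and 3 called genes and 0 shared sites.

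Spata13, an exchange factor for RAC and CDC42, had 1 intronic cluster called of 30 in replicate 1, with 3.57 from 7 IP reads and 1 SMInput read (0.61 to 9.06), and 0 of 6 in replicate 2. Its 3 partners Apc, Rac1 and Cdc42 were called in both replicates, with 0 shared sites. Spata24 encodes a partner of the transcription factor TBPL1. It had 0 of 11 clusters called in each replicate, and another protein-coding gene entry overlaps it on the same strand. Tbpl1 had 4 of 43 and 3 of 29 clusters called and a shared site. Spata7, a protein of the photoreceptor cilium, had 3 of 57 and 4 of 37 clusters called. Its shared site, chr12:98655156-98655242 on the + strand, lay in an intron and had 3.93 from 9 IP reads and 1 SMInput read (1.08 to 9.39, −log10(P value) 3.05) and 2.59 from 10 and 6 (0.98 to 4.33, −log10(P value) 3.29). The sequence of that site is a repeat with 740 other matches over at least 80% of its length, 3 of them at 90% identity or more, so its place is uncertain. In exons Spata7 was called in replicate 1 alone, with 2.29 from 26 and 9 reads (1.15 to 3.57). Of the 3 ciliary partners of SPATA7, 1 and 3 were called, and Rpgrip1 had a shared site.

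Among the members with less settled roles, Spata17 and Spata4 stood out by read number. Spata17 encodes a protein with calmodulin-binding IQ motifs. It had 4 of 103 and 7 of 51 clusters called, and its best pair lay at chr1:187135313-187135495 on the − strand, in the 3′UTR of an alternative last exon that its longest transcript lacks. Replicate 1 gave 3.53 from 68 IP and 10 SMInput reads (2.56 to 4.65, −log10(P value) 18.8), and replicate 2 gave 4.17 from 30 and 6 (2.88 to 5.73, −log10(P value) 17.7). A further shared site of Spata17 beside it, chr1:187135528-187135617, had 3.43 (2.17 to 4.96) and 3.19 (2.39 to 4.03). The first site also held the highest Spata17 cluster, 4.85 in replicate 2 from 32 and 4 reads (3.35 to 6.81), which pairs with the same cluster of replicate 1. The intervals of the replicates overlapped at both sites.

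Spata4 had 5 of 20 and 4 of 15 clusters called, all in the coding sequence. Its best pair, at chr8:54602647-54602698 on the + strand, had 2.05 from 83 IP and 34 SMInput reads in replicate 1 (1.46 to 2.67, −log10(P value) 13.1) and 3.15 from 74 and 30 in replicate 2 (2.52 to 3.81, −log10(P value) 33.0). Called clusters covered 11.7% and 16.9% of its 1057-base messenger RNA. The read numbers of Spata4 were the highest of the members outside the Spata31 family at a best pair, and the value of replicate 1 was close to the threshold.

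Spata1 had 3 of 55 and 4 of 49 clusters called. Its only exonic call, chr3:146457289-146457391 in the 3′UTR, had 2.48 from 46 IP and 14 SMInput reads in replicate 1 (1.59 to 3.46), and its exonic clusters of replicate 2 reached 1.95. The strongest Spata1 clusters were intronic, with 3.76 from 8 IP reads and 1 SMInput read in replicate 1 (0.86 to 9.23) and 3.17 from 5 and 2 in replicate 2 (0.56 to 6.56). Spata32 was called in replicate 2 with 1 of 3 clusters, chr11:103209057-103209166 in the coding sequence, at 2.43 from 27 and 18 reads (1.52 to 3.38), and its exonic clusters of replicate 1 reached 2.18. Spata21, with calcium-binding EF hands, was called in replicate 2 with 1 of 30 clusters, at 2.20 from 28 and 22 reads (1.34 to 3.07). In replicate 1 the exonic clusters of Spata21 reached 1.65. In each of these 3 genes the highest exonic value of the other replicate was lower and was not called. Without any call were Spata9 with 9 and 4 clusters, Spata25 with 2 and 3, Spata45 with 4 and 3, and Spata48 with 14 and 10. Together with Spata24 and Spata33, these genes had clusters between −1.11 and 2.76 in replicate 1 and between −0.15 and 3.43 in replicate 2.

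Called clusters of the Spata genes lay in coding sequence more than in 3′UTRs. Regions came from the coding transcripts of the annotation, with 3′UTR before CDS where transcripts differ. In replicate 1, 43 of 72 called clusters were in CDS (59.7%), 18 in 3′UTR (25.0%), 11 in introns (15.3%) and 0 in 5′UTR. In replicate 2, 54 of 96 were in CDS (56.2%), 14 in 3′UTR (14.6%), 27 in introns (28.1%) and 1 in 5′UTR (1.04%). Over all protein-coding genes, CDS held 28.7% and 20.6% of called clusters, 3′UTR 43.5% and 37.0%, and introns 25.0% and 40.2%. The Spata31 family had CDS shares of 69.8% and 81.6%. It had 0 intronic calls, but also 0 intronic clusters that could have been called, in both replicates. In the other Spata genes CDS made up 44.8% and 29.8%, 3′UTR 17.2% and 10.6%, and introns 37.9% and 57.4%. The 3′UTR share rests on the order of regions, because short annotated transcripts of Spata31 and Spata31d1a end inside the last coding exon of the long ones. With CDS placed first, 3′UTR held 9.72% in replicate 1 and 6.25% in replicate 2.

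Of the 16 shared sites of Spata genes, 9 were in CDS (56.2%), 6 in 3′UTR (37.5%) and 1 in an intron (6.25%), beside 28.1%, 63.6% and 5.27% of the 3855 shared sites in all protein-coding genes. Of the 6 in 3′UTR, the longest Spata31 site and both Spata31d1a sites lie in coding sequence of the long transcripts, which leaves those of Spata17 and the 3′UTR site of Spata31d1c. On the opposite strand of the Spata gene spans there were 21 clusters in replicate 1 and 5 in replicate 2, and 0 of them were called.

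Intronic calls rested on few reads. Outside the Spata31 family, the 11 intronic calls of replicate 1 held 7 to 10 IP reads, with a median of 8.00, and 8 of them had 1 SMInput read. The 27 of replicate 2 held 4 to 10 IP reads, with a median of 6.00, and 8 had 1 SMInput read. Exonic calls of the same genes held medians of 26.0 and 21.0 IP reads, and calls in the Spata31 family 51.0 and 30.5, the latter over 44 of 49 calls, since the 5 listed at 400 have no recovered reads. At these library totals, a cluster with 1 SMInput read was called from 7 IP reads in replicate 1 and from 4 in replicate 2, and equal read numbers gave a log2(fold change) of 0.76 and 1.85. The part of this difference in depth in the higher number of intronic calls of replicate 2 was not tested.

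Where clusters of the replicates overlapped, their values could be compared. Over 412 overlapping pairs in 27 Spata genes, Pearson's r was 0.82 and Spearman's rho 0.67, and 345 pairs (83.7%) had the same sign, beside 83.0% in all protein-coding genes. In all protein-coding genes r was 0.64 and rho 0.60 over 93551 pairs. Both clusters were called in 50 of the Spata pairs, 15 were called in replicate 1 alone and 24 in replicate 2 alone, or 12.1%, 3.64% and 5.83%, beside 7.03%, 4.20% and 8.41% of all pairs in protein-coding genes. The Spata31 family, with 56 pairs, had r 0.75 and rho 0.71, and 43 of its pairs were called in both (76.8%). The other members, with 356 pairs, had r 0.60 and rho 0.54, and 7 pairs (1.97%) were called in both, below the share of all protein-coding genes. These correlations run across clusters, which share genes, libraries and depth, and are not independent.

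**Figure D3:**
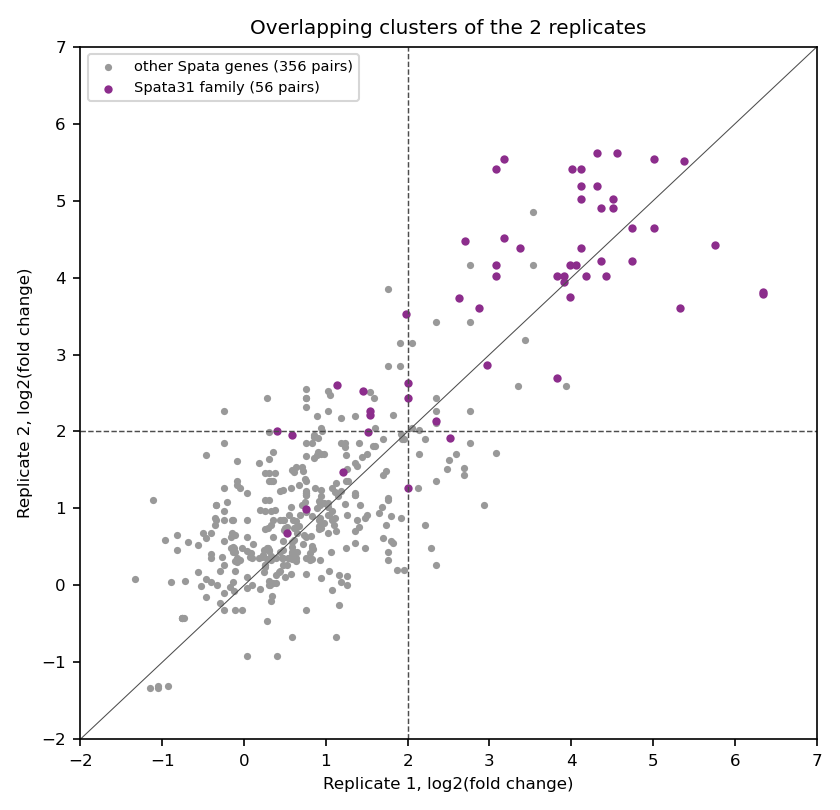
Each point is a pair of overlapping clusters in a Spata gene, with log2(fold change) of replicate 1 on the horizontal and of replicate 2 on the vertical axis; purple points are the Spata31 family, grey points the other Spata genes, dashed lines the threshold of 2 and the diagonal equal values. Of the 56 family pairs, 43 were called in both replicates, and of the 356 other pairs, 7.

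Sequences of a few sites are shown, those at the strongest pairs of Spata31d1d, Spata31 and Spata17 and, as examples chosen after the matches were seen, 2 Spata31 sites and the Spata19 site with motifs. They run 5′ to 3′ on the strand of the gene, from the GRCm38 (mm10) genome, and capitals mark 4 motifs. GAACA and AAACC are motifs that the study names, GGAC is the core of the consensus around methylated adenosine, and ACACA stands for the CA-rich stretches that IGF2BP proteins are known to bind. Where the annotation gives a 3′UTR, a stretch of 30 bases at the centre of the best pair is shown. The Spata31d1d site of 567 bases held none of the 4 motifs, while the Spata31 site near the end of the coding sequence held GAACA 2 times.
Spata31d1d, best pair, chr13:59729178-59729231, − strand, CDS: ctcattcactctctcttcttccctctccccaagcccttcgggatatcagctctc
Spata31, best pair, chr13:64920838-64920867, + strand, last coding exon: tattctcaatcacaaagtaagccacaatac
Spata17, best pair, chr1:187135351-187135380, − strand, 3′UTR: tacaacttttcaccacactgacctttccct
Spata31, shared site, chr13:64920934-64921071, + strand, CDS: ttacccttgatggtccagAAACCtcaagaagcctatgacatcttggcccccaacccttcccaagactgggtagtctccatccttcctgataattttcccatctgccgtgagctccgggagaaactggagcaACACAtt
Spata31, shared site, chr13:64922901-64922974, + strand, CDS: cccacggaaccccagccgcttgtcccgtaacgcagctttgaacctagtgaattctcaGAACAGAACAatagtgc
Spata19, shared site, chr9:27397703-27397777, + strand, CDS: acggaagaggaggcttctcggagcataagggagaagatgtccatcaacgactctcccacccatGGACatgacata

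In windows of 100 bases around the centres of the 16 shared sites, on the sense strand, GAACA was in 2 (12.5%), AAACC in 4 (25.0%), GGAC in 4 (25.0%) and ACACA in 2 (12.5%). Over the 3837 such windows of all protein-coding genes the shares were 7.61%, 9.36%, 24.9% and 11.0%. In windows of 200 bases the motifs were in 5 (31.2%), 4 (25.0%), 6 (37.5%) and 4 (25.0%) of the 16, beside 16.9%, 19.3%, 41.8% and 22.0% of all, so the shares depend on the window. Of the 100-base windows with AAACC, 3 belonged to Spata31 and 1 to Spata31d1a. The 100-base windows of Spata17, Spata31d1c in its coding sequence, Spata31d1d, Spata4 and Spata7 held none of the 4. A match describes the letters of a window and is not evidence of binding, and sites of 1 gene are not independent. The lowest GC content of the Spata windows was 34.0%, at the intronic Spata7 site, followed by 37.0% at Spata4.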

How the data were processed

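IGF2BP3 eCLIP-seq of mouse testis was used, with an IP and an SMInput library for each of 2 replicates. The authors trimmed reads with cutadapt, removed ribosomal reads with Bowtie2, aligned with STAR to mm10, collapsed duplicates and called clusters with Clipper. The deposited −log10 values are P values of IP against SMInput reads in a cluster, listed as 0 without enrichment and as 400 at the cap. The deposited log2 values are ratios of IP to SMInput reads, scaled to the libraries. Both are the authors' values, used to describe and filter. The study calls the replicates biological, while the labels do not assign animals to them. Each P value compares reads within a pair of libraries and does not measure the spread between replicates. Groups of samples were not tested against each other, since an exact permutation test of 2 against 2 libraries cannot go below 0.333.

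Members and gene lists were chosen with earlier results of these data known. Whole reads were recovered as the numbers that return both listed values, with a single solution for 98.87% and 99.18% of clusters listed between 0 and 400. The procedure was tested on simulated data. The recovery gives no SMInput number below 1. Whether a recovered 1 was an observed read or a floor set by the authors' processing is not known here. Positions were checked against GRCm38, and 0 clusters ran past a chromosome end. Where a percentage has an interval, it is a Wilson interval. Every member is named. Full values go to members with a shared called site, and members called in a single replicate or without overlap get their strongest called cluster; others get counts and ranges. Gene models came from GENCODE M21. Family coding sequences were aligned with MAFFT 7.526, and other matches were searched with BLAST+ 2.17.0 (e-value at most 1e-05). Python 3.11.15, NumPy 2.4.6, SciPy 1.17.1, pandas 2.3.3, pysam 0.24.0, ncls 0.0.70, samtools 1.23.1 and matplotlib 3.10.9 were used. Alternatives covered thresholds, adjusted P values, read minimum, overlap, gene assignment, regions, motif windows of 200 bases, the Spata31 family and each replicate alone.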

Additional observations from a re-analysis of the deposited data

How the results depend on the processing

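Of 136 alternative values, 87 stayed within their counting interval or within 1.5 times the count, 49 moved further and 0 reversed. With both thresholds at 3, called shares were 3.84% and 6.10% in replicates 1 and 2, with CDS at 70.6% and 70.3%, introns at 5.88% and 0%, and in replicate 2 3′UTR at 29.7% and 5′UTR at 0%; called genes fell to 5, 7 and 4 in both, and 4 had shared sites. With log2(fold change) at least 1, shares were 12.8% and 25.4%, introns held 18.8% in replicate 2, and 15 genes had shared sites. With P values adjusted over all clusters, introns held 8.33% in replicate 1 and 5′UTR 0% in replicate 2. With at least 10 IP reads, shares were 25.2% and 26.5%, introns held 3.39% and 3.23%, CDS 74.2% and 5′UTR 0% in replicate 2. Over pairs with 10 reads r was 0.87, rho 0.74 and 100% had 1 sign, which the filter fixes, since clusters listed at 0 have no recovered reads. With centres in exons, shares were 16.2% and 20.4%, CDS held 70.5% and 78.3%, and introns 0% in both by construction. Without the Spata31 family, shares were 3.55% and 8.56%, CDS 44.8% and 29.8%, introns 37.9% and 57.4%, 9 genes were called in both and 4 had shared sites; likeness, added after seeing the data, was 0.60 (r) and 0.54 (rho). With CDS before 3′UTR, 3′UTR held 9.72% and 6.25%, and CDS 75.0% in replicate 1. Genes with a shared site numbered 17 to 19 with a replicate left out, which counts calls of the other. By nearest transcription start site, 9 genes were called in both. Beyond the settings whose construction shows it, the cause was not tested. No paired analysis was possible because the results come from no test across samples, and each listed value is already paired, setting the IP against the SMInput of its replicate. Depth limits single clusters, since at 1 SMInput read the intervals span several log2 units, and clusters listed at 0 or 400 have no recovered reads.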
